A study of Mus musculus with 19 samples.

Results

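The genes of glycogen synthesis and breakdown described here are Pygl, Gys2, Ppp1r3b, Ppp1r3c, Ppp1r3g, Gbe1 and Ugp2, taken by symbol from the rows of the count table. They are 7 of 24421 gene symbols, and all 7 were among the 13293 genes that passed the filter on low counts and were tested. Their RNA was measured by sequencing of total liver RNA in 19 mouse libraries. All mice were on a purified normal diet and were treated over 3 weeks, with 2 injections in each week, with an antisense oligonucleotide (ASO), a synthetic strand that binds a chosen RNA and leads to its loss. The ASO was either a control or was directed at Plin5, which encodes perilipin 5, a coat protein of lipid droplets. Mice were killed either fasted overnight or fasted overnight and then re-fed for 4 hours. The groups were fasted control ASO (n = 4, libraries 1, 3, 4 and 5), fasted PLIN5 ASO (n = 5), re-fed control ASO (n = 5) and re-fed PLIN5 ASO (n = 5). The labels name 1 PLIN5 ASO and 1 control ASO and give no strain, sex or age. They do not say that every library came from a separate mouse, so the p-values measure the spread between these libraries. In whole liver RNA, fewer cells of a type and less RNA per cell cannot be told apart.

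Glycogen is the branched glucose polymer that liver stores after a meal and breaks down between meals to supply blood glucose. Glucose 1-phosphate is joined to UDP by UGP2, glycogen synthase (GYS2 in liver) adds the glucose to growing chains, and the branching enzyme GBE1 makes the branches. Liver glycogen phosphorylase (PYGL) removes glucose units from chain ends. The synthase and the phosphorylase are switched by phosphorylation: subunits of protein phosphatase 1 such as PPP1R3B, PPP1R3C and PPP1R3G bring the phosphatase to glycogen, where it turns the synthase on and the phosphorylase off. Much of this switching acts on the proteins, which RNA sequencing does not measure.

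Library totals were 24.9 to 66.9 in units of 1e6 counts, and the highest was re-fed PLIN5 ASO 5. Plin5 was lower in every PLIN5 ASO library (3.91 to 13.1 CPM, read counts per 1e6 counts of the library) than in every control ASO library (27.3 to 51.8 CPM). The liver label matched the data: albumin RNA (Alb) was at 53343 CPM or more in every library, and the 5 skeletal muscle markers together stayed below 1 CPM. Among fasted libraries, 2 of 9 markers of Kupffer cells and macrophages and 3 of 8 markers of stellate cells and fibroblasts were called higher with the PLIN5 ASO. The share of all genes called there, either way, was 1.17%. Among re-fed libraries 0 markers of either list were called higher or lower with the PLIN5 ASO. Of other lists there, 1 of 8 hepatocyte markers was called higher and 1 of 6 liver endothelial markers lower. The share of all genes called in that comparison, either way, was 1.38%. In 4 libraries the circadian clock genes stood apart from the rest: fasted PLIN5 ASO 3 and 5 and re-fed control ASO 3 and 5. Arntl, a core activator of the clock, was at 14.6, 14.97, 23.8 and 45.0 CPM there and between 0.566 and 4.87 CPM in the other 15. Dbp, a clock output gene, was at 4.805, 18.9, 11.5 and 1.82 CPM there, against 36.3 to 160 CPM. Of 12 clock genes, 2 were called higher with re-feeding under the control ASO, where 6.42% of all genes were. The median log2 fold change of the 12 was -0.32. Arntl was 1 of the 2. Without re-fed control ASO 3 and 5 its re-fed mean was 1.79 CPM, beside 1.41 CPM in fasted control ASO. The 4 libraries that stood apart are called clock-shifted libraries below. Since several glycogen genes differed in them, results that rest on them are given with and without them. The library fasted control ASO 3 was much closer to 4 than any other pair within a group. The chi-square per degree of freedom between their counts was 3.24, against 18.9 for the next closest pair. Counting both as 1 sample left the calls among the 7 genes the same. Over all genes it lowered the calls from 156 to 36 in the fasted ASO comparison. On re-feeding under the control ASO it lowered them from 1759 to 1139.

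Re-feeding raised the RNA of liver glycogen phosphorylase about 2-fold under both ASOs, and this was the most uniform change among the 7 genes. Pygl (ENSMUSG00000021069.17, GRCm38 chr12:70190811-70231488, minus strand) was at 341, 331, 338 and 343 CPM in the fasted control ASO libraries. After re-feeding the libraries of the control ASO stood at 653, 699, 735, 630 and 840 CPM. Every re-fed value lay above every fasted one. The log2 fold change was 1.07 (SE 0.10, 95% confidence interval 0.87 to 1.28, edgeR quasi-likelihood adjusted p = 5.89e-06), a fold of 2.10. Under the PLIN5 ASO, Pygl was at 301, 343, 299, 291 and 309 CPM in fasted libraries and at 553, 592, 782, 666 and 604 CPM in re-fed libraries, again with no overlap. Here the log2 fold change was 1.05 (SE 0.09, interval 0.86 to 1.25, edgeR adjusted p = 1.48e-06), a fold of 2.07. Without the clock-shifted libraries it was 0.97 under the control ASO and 1.04 under the PLIN5 ASO, both called. The difference between these responses to feeding was -0.02 on the log2 scale (SE 0.13, edgeR adjusted p = 0.956).

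**Figure D1:**
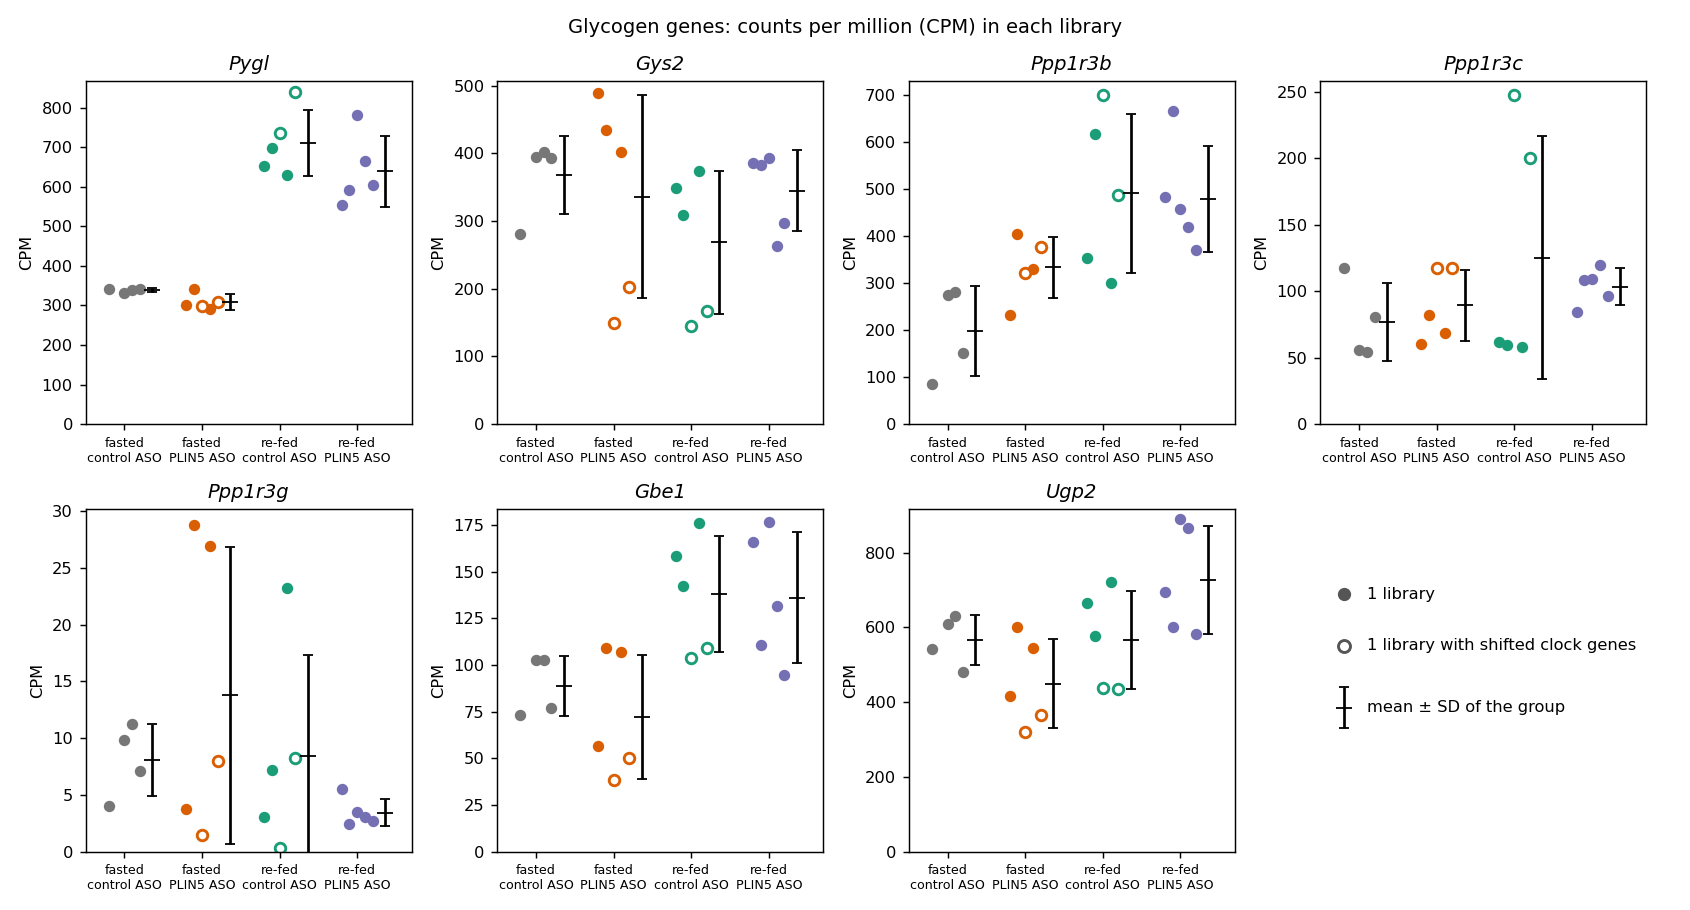
CPM (y axis, linear from 0) of the 7 glycogen genes in each library of the 4 groups (x axis). Points are libraries, open points the 4 clock-shifted ones, and the bars are the mean ± SD. The re-fed Pygl libraries lie between 553 and 840 CPM and the fasted ones between 291 and 343 CPM, while the open points of Gys2 are the lowest of their groups and those of Ppp1r3c the highest.

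The phosphatase subunit Ppp1r3b, the form that predominates in liver, rose with re-feeding under the control ASO. Ppp1r3b (ENSMUSG00000046794.9, chr8:35375739-35388139, plus strand) was at 85.2, 275, 282 and 151 CPM in fasted control ASO libraries and at 354, 618, 700, 301 and 488 CPM in re-fed ones. The groups did not overlap, although each spread widely. The log2 fold change was 1.31 (SE 0.31, interval 0.67 to 1.95, edgeR adjusted p = 0.00802). All 9 fits with 1 library missing called it. With the clock-shifted libraries removed it was 1.10 with an edgeR adjusted p of 0.0573. Under the PLIN5 ASO the fasted libraries were at 233, 405, 322, 331 and 377 CPM and the re-fed ones at 483, 666, 458, 421 and 370 CPM. These groups overlapped, through re-fed library 5 and fasted libraries 2 and 5. The log2 fold change of 0.52 (SE 0.28, interval -0.06 to 1.11) did not pass the test (edgeR adjusted p = 0.270). The difference between the responses under the 2 ASOs was -0.79 (SE 0.41, edgeR adjusted p = 0.369), so a difference between them was not shown.

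The branching enzyme gene Gbe1 had a higher mean in re-fed than in fasted liver under both ASOs, with a call that depended on the libraries used. Gbe1 (ENSMUSG00000022707.16, chr16:70313949-70569716, plus strand) was at 73.0, 103, 102 and 76.8 CPM in fasted control ASO libraries and at 158, 143, 104, 176 and 109 CPM in re-fed ones. The lowest re-fed library lay just above the highest fasted one, and the 2 lowest re-fed values were the clock-shifted libraries. With all libraries the log2 fold change was 0.64 (SE 0.27, edgeR adjusted p = 0.128). Without the clock-shifted ones it was 0.84 (SE 0.23, edgeR adjusted p = 0.0309).

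Under the PLIN5 ASO, Gbe1 was at 56.8, 109, 38.2, 107 and 50.0 CPM in fasted libraries and at 166, 111, 177, 132 and 94.8 CPM in re-fed ones. Re-fed library 5 fell among the fasted values. Re-feeding changed Gbe1 by a log2 fold of 0.91 (SE 0.26, interval 0.38 to 1.45, edgeR adjusted p = 0.0319). This call was lost when fasted PLIN5 ASO 1, 3 or 5 or re-fed PLIN5 ASO 1, 3 or 4 was left out (edgeR adjusted p up to 0.0894). Without the clock-shifted libraries the change was 0.58 (SE 0.22, edgeR adjusted p = 0.125).

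Ugp2, whose product makes the UDP-glucose used by the synthase, rose with re-feeding under the PLIN5 ASO. Ugp2 (ENSMUSG00000001891.16, chr11:21321138-21371201, minus strand) was at 416, 602, 320, 544 and 366 CPM in fasted PLIN5 ASO libraries and at 695, 602, 889, 866 and 582 CPM in re-fed ones. Fasted library 2 reached the level of the lower re-fed libraries. Re-feeding changed Ugp2 by a log2 fold of 0.69 (SE 0.18, interval 0.31 to 1.07, edgeR adjusted p = 0.0222). It was no longer called when fasted PLIN5 ASO 3 or 5 or re-fed PLIN5 ASO 3 or 4 was left out (edgeR adjusted p up to 0.0670), nor without the clock-shifted libraries (0.48, SE 0.16, edgeR adjusted p = 0.0742).

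Under the control ASO, Ugp2 was at 543, 610, 630 and 481 CPM in fasted libraries and at 665, 576, 437, 722 and 434 CPM in re-fed ones, with the 2 clock-shifted libraries lowest. Its log2 fold change was 0.00 (SE 0.19, interval -0.40 to 0.40, edgeR adjusted p = 0.997). The difference between the responses under the 2 ASOs was 0.69 (SE 0.26), with an unadjusted p of 0.0165 and an edgeR adjusted p of 0.262. Without the clock-shifted libraries that difference was 0.27.

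The liver glycogen synthase gene Gys2 was called in no comparison. Gys2 (ENSMUSG00000030244.7, chr6:142422613-142473109, minus strand) was at 281, 394, 402 and 393 CPM in fasted control ASO libraries and at 349, 309, 145, 374 and 168 CPM in re-fed ones. It was at 490, 435, 150, 403 and 203 CPM in fasted PLIN5 ASO libraries and at 386, 383, 393, 263 and 298 CPM in re-fed ones. The 4 lowest values of the 19 were the 4 clock-shifted libraries, at 145 to 203 CPM. The re-feeding change was -0.45 (SE 0.31, edgeR adjusted p = 0.359) under the control ASO and 0.04 (SE 0.29, edgeR adjusted p = 0.961) under the PLIN5 ASO. Without the clock-shifted libraries these were -0.10 and -0.36, neither called.

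Ppp1r3c, a phosphatase subunit also known as protein targeting to glycogen, had the opposite pattern. Ppp1r3c (ENSMUSG00000067279.3, chr19:36731731-36736653, minus strand) was at 117, 55.7, 54.1 and 80.4 CPM in fasted control ASO libraries and at 61.8, 59.4, 247, 57.7 and 200 CPM in re-fed ones. It was at 60.6, 82.2, 117, 68.2 and 118 CPM in fasted PLIN5 ASO libraries and at 84.0, 108, 109, 119 and 96.0 CPM in re-fed ones. The clock-shifted libraries were the highest of their groups. The re-feeding change under the control ASO was 0.70 (SE 0.39, edgeR adjusted p = 0.245) with all libraries and -0.37 without the clock-shifted ones, so its direction rested on re-fed control ASO 3 and 5.

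Ppp1r3g, the least abundant of the 3 subunits among the 7 genes, varied most between libraries. Ppp1r3g (ENSMUSG00000050423.11, chr13:35958839-35970388, plus strand) was at 4.03, 9.87, 11.3 and 7.15 CPM in fasted control ASO libraries and at 3.08, 7.19, 0.334, 23.2 and 8.26 CPM in re-fed ones. The lowest value, in re-fed control ASO 3, rested on 10 counts. With the PLIN5 ASO it was at 3.73, 28.7, 1.49, 27.0 and 7.96 CPM in fasted libraries and at 5.50, 2.48, 3.47, 3.06 and 2.68 CPM in re-fed ones. The re-fed libraries lay in a narrow range. Fasted library 1 fell inside that range, library 3 below it and the other 3 above it. Its log2 fold change was -2.01 (SE 0.76, interval -3.60 to -0.42, edgeR adjusted p = 0.110), and -2.54 (SE 0.59, edgeR adjusted p = 0.0141) without the clock-shifted libraries.

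Counted over the 7 genes, 2 were called higher with re-feeding under the control ASO and 0 lower, where 6.42% of all genes tested were called higher, 6.82% lower and 13.2% either way. With the PLIN5 ASO 3 were called higher and 0 lower, against 4.5% higher, 4.14% lower and 8.64% either way over all genes. The median log2 fold change of the 7 was 0.64 and 0.52, beside 0.03 and 0.00 over all genes. The 2 sets of calls shared Pygl. Without the clock-shifted libraries 2 were called under each ASO, Pygl and Gbe1 under the control ASO and Pygl and Ppp1r3g (lower) under the PLIN5 ASO, where 8.78% and 7.89% of all genes were called either way. When only the groups compared were fitted, Pygl alone was called under the PLIN5 ASO, 1 of 7, beside 6.23% of all genes.

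**Figure D2:**
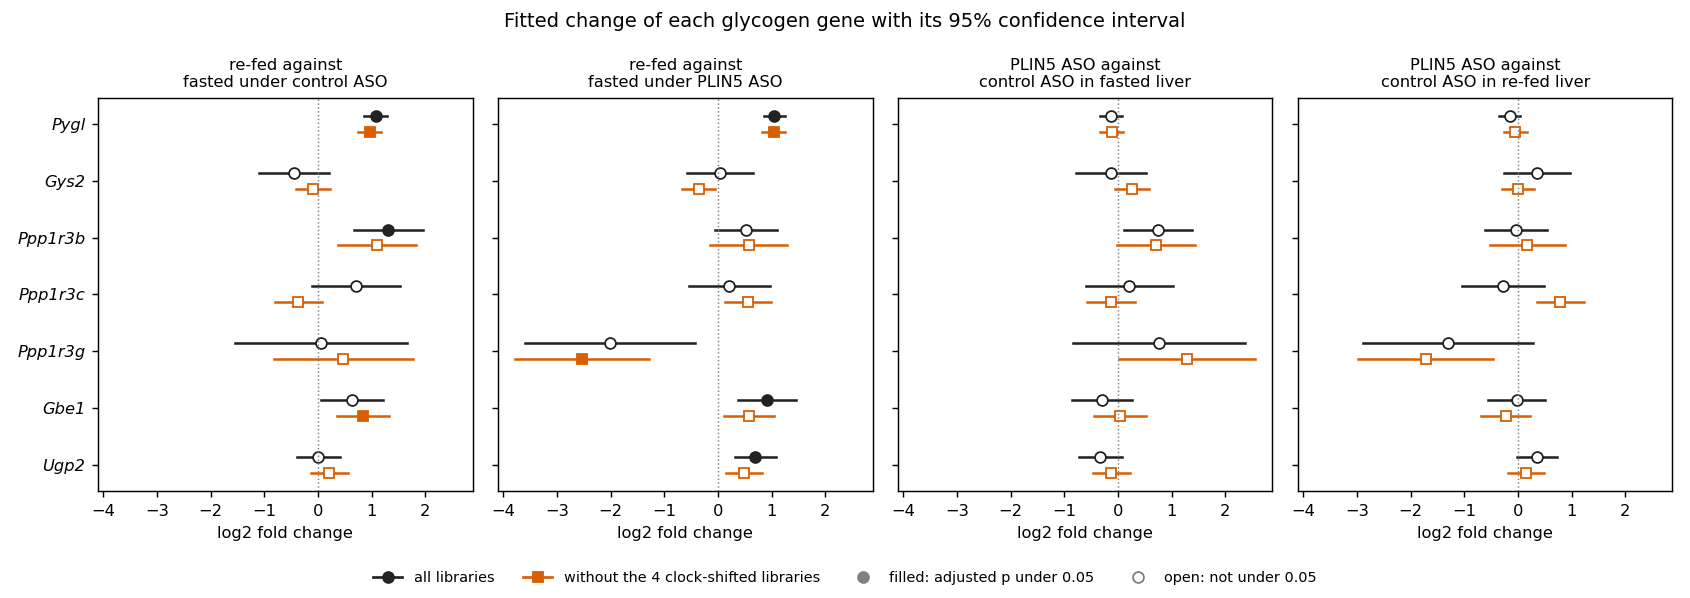
Fitted log2 fold change (x axis) of each of the 7 glycogen genes (y axis) in 4 comparisons, with lines for the 95% confidence interval. Circles use all 19 libraries and squares leave out the 4 clock-shifted ones; filled symbols passed an adjusted p of 0.05. Pygl is filled in both re-feeding panels with either set of libraries, and both panels of PLIN5 ASO against control ASO hold open symbols only.

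The PLIN5 ASO changed none of the 7 genes past the threshold in either feeding state. In fasted liver 0 of 7 were called with edgeR and 0 with DESeq2, where 1.17% of all genes were called with edgeR, and 1 had an unadjusted p under 0.05. This was Ppp1r3b, at 198 ± 96.4 CPM (SD, n = 4) with the control ASO and 334 ± 65.8 CPM (SD, n = 5) with the PLIN5 ASO. Its log2 fold change was 0.75 (SE 0.30, interval 0.12 to 1.38, edgeR adjusted p = 0.236), and the groups overlapped. In re-fed liver 0 of 7 were called with edgeR and 0 with DESeq2, against 1.38% of all genes with edgeR, and 0 had an unadjusted p under 0.05. The intervals show what size of change these libraries leave possible. For Pygl the change was -0.13 (interval -0.34 to 0.07) in fasted and -0.15 (interval -0.34 to 0.04) in re-fed liver, whereas for Ppp1r3g it was -1.30 (interval -2.88 to 0.28) in re-fed liver.

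Ppp1r3c stood out among these ASO comparisons once the clock-shifted libraries were left out. The 3 other re-fed control ASO libraries were at 57.7 to 61.8 CPM and the 5 re-fed PLIN5 ASO libraries at 84.0 to 119 CPM, with no overlap. The log2 fold change was then 0.79 (SE 0.20, interval 0.36 to 1.23, edgeR adjusted p = 0.0922), against -0.28 (SE 0.36, edgeR adjusted p = 0.725) with all libraries. Neither was called. For the interaction of ASO and feeding 0 of 7 were called with edgeR and 0 with DESeq2, beside 0.0226% of all genes with edgeR, and 1 of the 7, Ugp2, had an unadjusted p under 0.05. The re-feeding and ASO comparisons share their libraries in pairs and are not independent of each other.

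The clock-shifted libraries differed from the rest of their own group in the same direction in both groups for Gys2, Ppp1r3c, Gbe1 and Ugp2, with no overlap. Their log2 difference from the other libraries was -1.34 in fasted PLIN5 ASO and -1.14 in re-fed control ASO for Gys2. For Ppp1r3c it was 0.75 and 1.90. Gbe1 was lower in them by -0.996 and -0.57, and Ugp2 by -0.59 and -0.58, on the log2 scale. Ppp1r3g differed by -2.02 and -2.16 with overlap, and Ppp1r3b by 0.15 and 0.53 with overlap. Pygl differed by -0.03 in fasted PLIN5 ASO, with overlap, and by 0.25 in re-fed control ASO, where library 3 and library 5 were the highest. These libraries were set apart by their clock genes after the values were seen, 2 in each of 2 groups, so the differences are given without a test. The share of all genes that differ in this way without overlap was not counted, so no trait particular to the glycogen genes is shown. What sets the clock-shifted libraries apart is not given in the labels, and its part in the group results was not tested beyond leaving these libraries out.

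**Figure D3:**
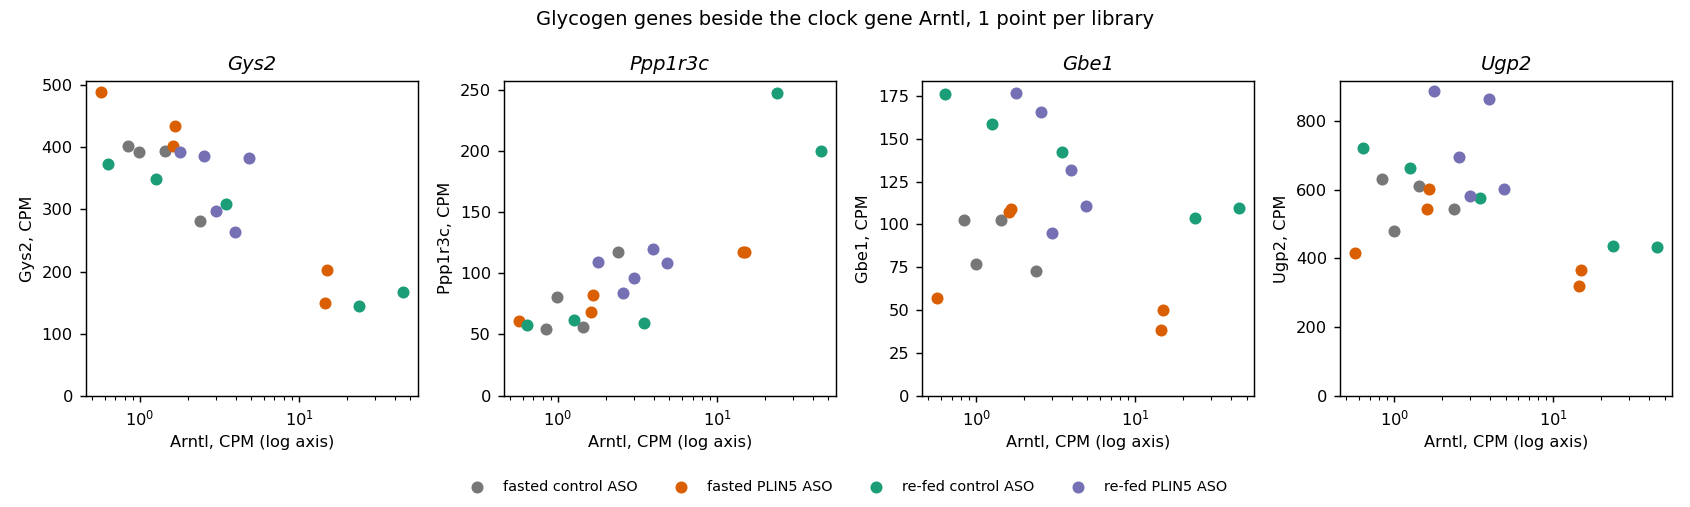
CPM of Gys2, Ppp1r3c, Gbe1 and Ugp2 (y axes, linear from 0) against those of the clock gene Arntl (x axis, logarithmic), 1 point per library, coloured by group. The 4 points at the right, with Arntl at 14.6 to 45.0 CPM, hold the 4 lowest Gys2 values of the 19, and the 2 highest Ppp1r3c values are among them.

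Over all 19 libraries Gys2 and Ppp1r3c came close to mirror images of each other. With each gene centred on the mean of its group means on the log2 scale, the root mean square of their sum was 0.37, against 1.06 for their difference. Gbe1 and Ugp2 were the most alike of the 21 pairs among the 7 genes, with a root mean square difference of 0.34. These are descriptions over libraries that share the clock-shifted ones, and they say nothing of shared control.

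The region before the start of Ppp1r3c is shown because that gene differed by up to 1.90 on the log2 scale in the clock-shifted libraries. RefSeq windows from 250 bases before to 50 bases after the start (GRCm38.p6) were matched for 5 of the 7 genes, not for Gys2 and Ppp1r3b. Both strands were searched for CACGTG (the E-box bound by the clock activators), GTAAACA (a FoxO element), TGACGTCA (a cAMP response element) and TTACGTAA (a D-box). The E-box was found in the window of Ppp1r3c only, starting 104 bases before the RefSeq start (position -104). The other 3 motifs were in none of the 5. Among all 32851 windows, 7.15% held CACGTG, 3.65% GTAAACA, 1.79% TGACGTCA and 0.119% TTACGTAA. The GENCODE span of Ppp1r3c ends at 36736653 on the side of the start, inside the bases shown next. The 2 annotations thus place this start differently, and by GENCODE the E-box lies closer to the start. The 250 bases before the RefSeq start of Ppp1r3c (chr19:36736605-36736854, minus strand, 5′ to 3′) follow, with the E-box in capitals.
Ppp1r3c: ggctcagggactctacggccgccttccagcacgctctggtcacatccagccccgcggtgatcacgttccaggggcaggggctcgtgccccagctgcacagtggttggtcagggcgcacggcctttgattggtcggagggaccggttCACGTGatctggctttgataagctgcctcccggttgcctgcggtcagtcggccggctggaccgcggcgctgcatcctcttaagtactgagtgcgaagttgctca
For contrast, the 250 bases before the start of Pygl (chr12:70227684-70227933, minus strand), the gene with the most uniform response to feeding, hold none of the 4 motifs. The RefSeq start used for this window lies inside the GENCODE span of Pygl given above, whose end on the side of the start is at 70231488, so the 2 annotations place the start differently.
Pygl: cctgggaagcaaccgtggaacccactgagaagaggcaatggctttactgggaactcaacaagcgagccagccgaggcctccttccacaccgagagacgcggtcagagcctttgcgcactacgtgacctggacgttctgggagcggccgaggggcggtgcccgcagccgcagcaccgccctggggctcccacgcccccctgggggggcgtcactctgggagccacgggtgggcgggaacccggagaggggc
A match is a description of letters and shows neither binding nor a cause, and the lack of one says only that these letters are not in the window.

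Levels of different genes were compared per length, as deposited FPKM (fragments per kilobase of transcript, scaled to the mapped fragments of the library). In both fasted groups the order by mean was Ugp2, Gys2 and Pygl, followed by Ppp1r3b. Ugp2 was at 197 ± 22.4 FPKM, Gys2 at 129 ± 20.04 and Pygl at 114 ± 1.94 (SD, n = 4) with the control ASO. Gys2 was above Pygl in 3 of 4 fasted control ASO libraries and in 3 of 5 fasted PLIN5 ASO libraries; the 2 with Gys2 below Pygl were the clock-shifted ones. In re-fed control ASO liver Pygl was first, at 246 ± 28.2 FPKM, and Ugp2 next, at 203 ± 48.1 (SD, n = 5), with Pygl above Ugp2 in 3 of 5 libraries. Among the libraries not clock-shifted this order turned, with Ugp2 at 236 ± 24.7 and Pygl at 231 ± 15.2 FPKM (SD, n = 3) and Pygl above Ugp2 in 1 of 3. In re-fed PLIN5 ASO liver Ugp2, at 259 ± 52.3 FPKM, was above Pygl, at 216 ± 32.2 (SD, n = 5), in 5 of 5. With all libraries Gbe1 and Ppp1r3c overlapped in every group. Without the clock-shifted ones Gbe1, at 52.5 ± 4.46 FPKM, was apart from Ppp1r3c, at 22.1 ± 1.10 FPKM (SD, n = 3), in re-fed control ASO liver. Ppp1r3g was lowest in all 4, at 1.49 to 5.91 FPKM on average.

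The balance of synthase to phosphorylase RNA had a lower mean in re-fed liver. The ratio of Gys2 to Pygl FPKM was 1.14 ± 0.188 (SD, n = 4) in fasted control ASO liver and 0.413 ± 0.193 (SD, n = 5) in re-fed control ASO liver. It was 1.14 ± 0.513 (SD, n = 5) in fasted and 0.578 ± 0.129 (SD, n = 5) in re-fed PLIN5 ASO liver. Under the control ASO the lowest fasted ratio, 0.861, lay above the highest re-fed one, 0.619. Under the PLIN5 ASO the ranges of 0.521 to 1.70 and 0.415 to 0.732 overlapped, through the clock-shifted fasted libraries 3 and 5 at 0.521 and 0.685. The other 3 fasted libraries were at 1.33 to 1.70, above every re-fed one. In re-fed control ASO liver the clock-shifted libraries were the lowest, at 0.212 and 0.209, and the other 3 were at 0.466 to 0.619, with a mean of 0.548 ± 0.0774 (SD, n = 3). The ratio is given as a description, with no test.

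Ppp1r3b made up most of the RNA of the glycogen-targeting subunits of protein phosphatase 1. Of the summed FPKM of Ppp1r3a to Ppp1r3g it held 55.2% ± 19.4 (SD, n = 4) in fasted control ASO liver, 65.7% ± 2.12 in fasted PLIN5 ASO, 70.1% ± 9.95 in re-fed control ASO and 72.3% ± 4.61 in re-fed PLIN5 ASO liver (SD, n = 5 each). Ppp1r3c followed, with 37.8% ± 20.3, 27.8% ± 6.22, 25.6% ± 10.8 and 25.4% ± 4.59 in the same order. In 1 library, fasted control ASO 1, the order was turned, with 29.8% from Ppp1r3b and 64.9% from Ppp1r3c. Ppp1r3g held 1.02% to 4.94% and Ppp1r3e 1.20% to 2.43% on average. Ppp1r3a, the muscle form, Ppp1r3d and Ppp1r3f together added little: each was below 0.2% in every library.

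**Figure D4:**
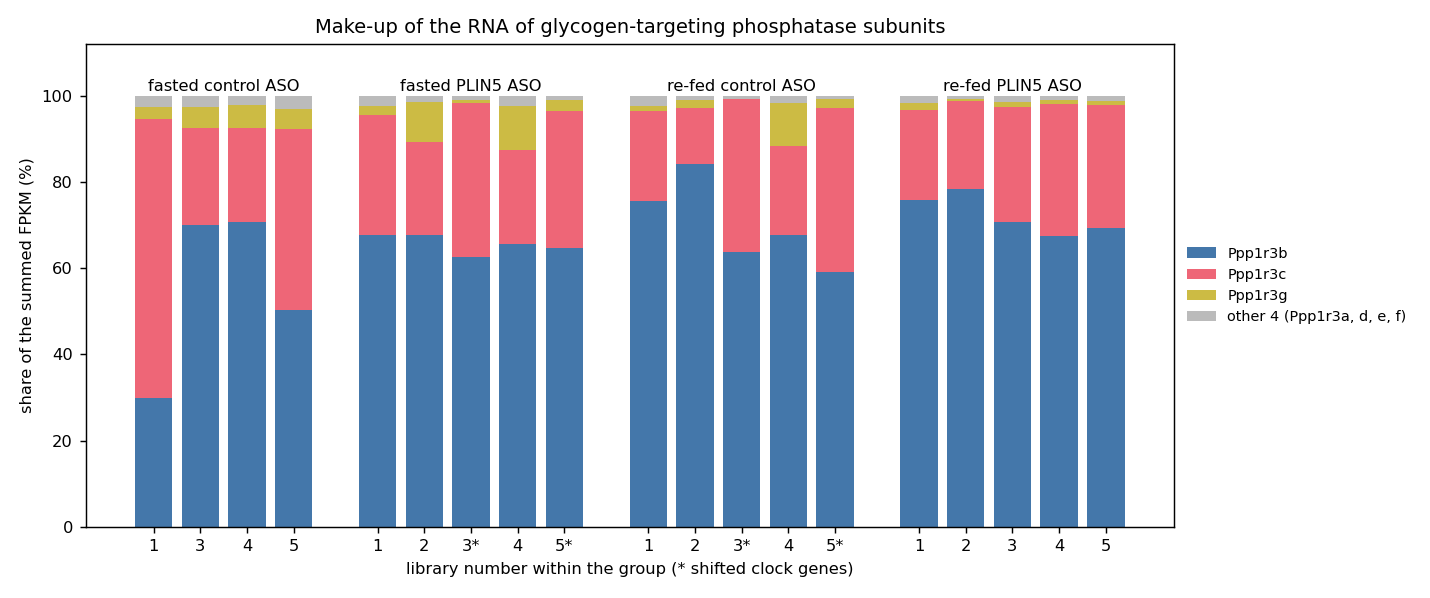
Share of the summed FPKM of the 7 glycogen-targeting phosphatase subunits (y axis, percent) in each library (x axis, by group, with a star for clock-shifted libraries). Ppp1r3b is the largest part in 18 of 19 libraries; in fasted control ASO 1 Ppp1r3c is, at 64.9%.

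The rest of the pathway was read from a list of 39 genes, of which 35 were tested (Phkg1, Ppp1r3a, Ppp1r3d and Ppp1r3f were not). Re-feeding under the control ASO called 3 higher (against 6.42% of all genes) and 2 lower (6.82%), and under the PLIN5 ASO 3 higher (4.5%) and 4 lower (4.14%). The median log2 fold change of the 35 was -0.03 in both, beside 0.03 and 0.00 over all genes. The clearest of these changes were in the entry and exit of glucose 6-phosphate, where 2 of 5 genes rose under the control ASO and 3 of 5 under the PLIN5 ASO, with none lower.

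G6pc, the glucose 6-phosphatase that releases glucose, rose under the control ASO, from 458 ± 55.3 (SD, n = 4) to 1057 ± 370 CPM (SD, n = 5), with a change of 1.21 (SE 0.28, edgeR adjusted p = 0.00762) and no overlap. Under the PLIN5 ASO its change was 0.34 (SE 0.26, edgeR adjusted p = 0.445). In fasted PLIN5 ASO liver G6pc averaged 853 CPM in the clock-shifted libraries and 529 CPM in the others, with no overlap. Gckr rose by 0.59 (SE 0.11, edgeR adjusted p = 0.00204) under the PLIN5 ASO. Its change under the control ASO was 0.28 (SE 0.12, edgeR adjusted p = 0.110). Slc37a4, which carries glucose 6-phosphate to the phosphatase, rose by 0.67 (SE 0.17, edgeR adjusted p = 0.0213) under the PLIN5 ASO. Its change under the control ASO was 0.43 (SE 0.18, edgeR adjusted p = 0.128). The interaction was called for none of these genes (edgeR adjusted p of 0.290 to 0.681). The call of Slc37a4 was lost without fasted PLIN5 ASO 3 or 5 or re-fed PLIN5 ASO 2 or 3 (edgeR adjusted p up to 0.0801), and also without the clock-shifted libraries.

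Among the other glycogen enzymes 1 of 8 rose and 1 of 8 fell under the control ASO, where 6.42% of all genes were called higher and 6.82% lower. Under the PLIN5 ASO 0 of 8 were called, where 4.5% of all genes were called higher and 4.14% lower. Gaa, the lysosomal enzyme that digests glycogen, fell from 119 ± 5.08 (SD, n = 4) to 92.1 ± 5.71 CPM (SD, n = 5) under the control ASO. Its fitted log2 change was -0.37 (SE 0.08, edgeR adjusted p = 0.00412) there and -0.21 (SE 0.07, edgeR adjusted p = 0.0883) under the PLIN5 ASO. The gene listed as Pgm1, a phosphoglucomutase, rose by 0.63 (SE 0.19, edgeR adjusted p = 0.0328) from 2.92 ± 0.549 CPM (SD, n = 4). Its call was lost without fasted control ASO 1, 4 or 5, re-fed control ASO 3, 4 or 5, or the clock-shifted libraries together, and with limma on log2 FPKM plus 1 with no filter.

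Stbd1, a glycogen-binding membrane protein, fell under both ASOs. Its log2 fold change was -0.51 (SE 0.13, edgeR adjusted p = 0.0108) under the control ASO and -0.55 (SE 0.12, edgeR adjusted p = 0.00645) under the PLIN5 ASO. It was called in every alternative fit under both ASOs, as were Gaa and G6pc under the control ASO and Gckr under the PLIN5 ASO. Of 5 tested genes of protein phosphatase 1 outside the 7, 1 was called lower under the PLIN5 ASO, where 4.14% of all genes were. Under the control ASO 0 were called lower, where 6.82% of all genes were. The gene called was Ppp1cc, a catalytic subunit (-0.35, SE 0.10, edgeR adjusted p = 0.0314). Its change under the control ASO was -0.19 (SE 0.10, edgeR adjusted p = 0.246), and its interaction was not called (edgeR adjusted p = 0.608). The Ppp1cc call was lost without fasted PLIN5 ASO 1, 2 or 3 or re-fed PLIN5 ASO 1, 2 or 4. It was also lost with the replicate number as a block (edgeR adjusted p = 0.0580) and in the 3 limma fits of log2 FPKM (adjusted p of 0.0914 to 0.136).

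Of 8 genes of hormone input 2 fell under the PLIN5 ASO, where 4.14% of all genes were called lower, and 0 under the control ASO, where 6.82% were. Insr, the insulin receptor, changed by -0.29 (SE 0.08, edgeR adjusted p = 0.0228) and Gcgr, the glucagon receptor, by -0.22 (SE 0.06, edgeR adjusted p = 0.0386). Under the control ASO Gcgr changed by -0.18 (SE 0.07, edgeR adjusted p = 0.0776) and Insr by -0.07 (SE 0.08, edgeR adjusted p = 0.583). The interaction was called for neither (edgeR adjusted p = 0.885 for Gcgr and 0.368 for Insr). The Insr call was lost without fasted PLIN5 ASO 2 or re-fed PLIN5 ASO 4 and with the length trend taken out. The Gcgr call was lost without fasted PLIN5 ASO 1, 2, 3 or 5, re-fed PLIN5 ASO 1, 3 or 4, or the clock-shifted libraries together, and also with no filter on low counts or with only the groups compared.

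**Figure D5:**
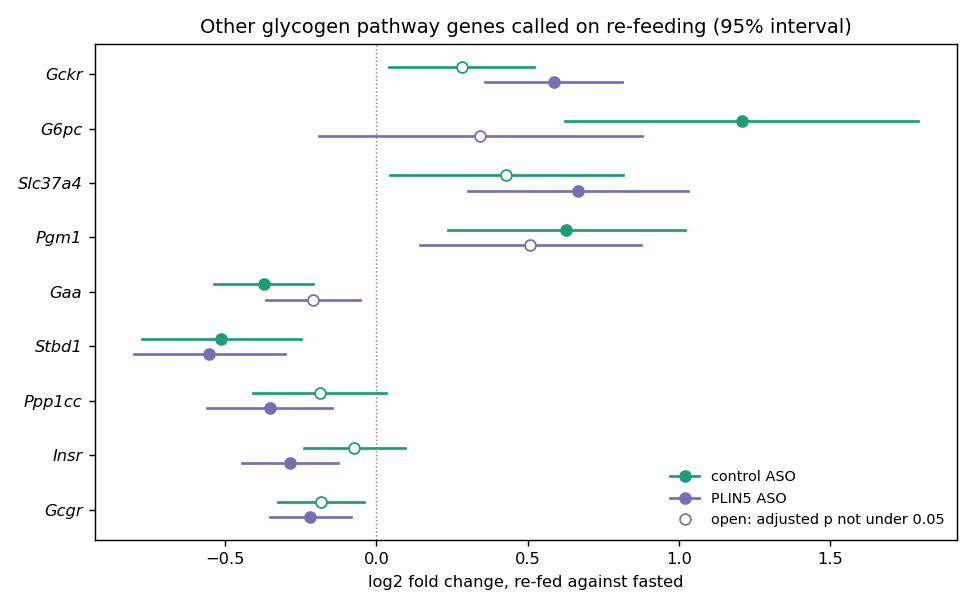
Log2 fold change of re-fed against fasted liver (x axis) with its 95% confidence interval for 9 other pathway genes called on re-feeding under at least 1 ASO (y axis), for the control ASO and the PLIN5 ASO. Filled points passed an adjusted p of 0.05. Stbd1 is filled for both ASOs, at -0.51 and -0.55.

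The PLIN5 ASO left this wider list with 0 of 35 called in fasted liver by edgeR, where 1.17% of all genes were called. DESeq2 called 0 of the 35 and 431 of 18207 genes. With edgeR, 4 of the 35 had an unadjusted p under 0.05. The shares over all genes are so small that 0 of 35 does not set the list apart. In re-fed liver 1 of 35 was called lower, where 0.564% of all genes were. DESeq2 called 2 of the 35 and 612 of 18207 genes. When only the groups compared were fitted, 0 of the 35 and only 4 of 12681 genes were called. The edgeR call was Phkb, a regulatory subunit of phosphorylase kinase, the enzyme that turns the phosphorylase on. Its libraries with the control ASO were at 23.8, 19.8, 24.3, 19.9 and 21.0 CPM, and those with the PLIN5 ASO at 18.3, 14.5, 15.8, 17.8 and 18.9 CPM. The groups did not overlap, and the log2 fold change was -0.35 (SE 0.08, edgeR adjusted p = 0.0362). The call was lost without re-fed control ASO 1, 3 or 5, without re-fed PLIN5 ASO 1, 2 or 3, and without the clock-shifted libraries. It was also lost with no filter on low counts, with only the groups compared and with the length trend taken out, and stood in 12 of 22 alternatives. For the interaction 0 of 35 were called by edgeR, beside 0.0226% of all genes, with 4 at an unadjusted p under 0.05. DESeq2 called 0 of the 35 and 93 of 18207 genes.

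For each of the 4 glycogen genes called in some comparison, the 3 genes closest in pattern over the 19 libraries were taken from 10308 candidates by the root mean square difference of centred log2 CPM. Closest to Pygl, whose own root mean square deviation was 0.55, were Slc25a44 (0.16), Pgd (0.21) and Bmyc (0.21). Slc25a44 went from 48.3 ± 3.04 CPM (SD, n = 4) in fasted to 95.03 ± 8.66 CPM (SD, n = 5) in re-fed control ASO liver. Pgd, an enzyme of the pentose phosphate pathway, went from 23.7 ± 2.59 (SD, n = 4) to 50.2 ± 7.11 CPM (SD, n = 5). Closest to Gbe1 (own deviation 0.60) were Gas2l3 (0.28), Tkt (0.28) and Rnd2 (0.29), of which Tkt encodes transketolase of the same pathway as Pgd. Closest to Ugp2 (own deviation 0.38) were, among those named here, Umps (0.19) and Slc2a2 (0.21), the latter in the pathway list as the liver glucose transporter. Closest to Ppp1r3b (own deviation 0.71) were Fam35a (0.31), Tmc7 (0.42) and Ccnf (0.42), a looser likeness.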

How the data were processed

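Liver total RNA was extracted with a column kit and sequenced from standard Illumina libraries, per the labels. Per the submitters' processing notes, the tools included HISAT2 2.0.2, Subread, edgeR, FastQC and Cuffdiff 2.2.1, and the build was mm10, also given as GRCm38; which tool made which table is not stated. Annotation, strandedness and the treatment of ambiguous reads are not given in the sources used. Per gene symbol, the authors deposited whole read counts (24421 symbols, 27 of them in the form of dates) and FPKM.

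The counts were fitted with edgeR 4.0.16 (R 4.3.3) after filterByExpr by group (minimum count 10) and TMM normalization, with group means estimated from all 19 libraries together, the two-sided quasi-likelihood F test and Benjamini-Hochberg adjustment over 13293 genes at 0.05. The biological coefficient of variation was 19.3%. CPM are on TMM-scaled libraries. Likeness used log2 CPM with a prior count of 2, among genes averaging 2 CPM or more in a group. FPKM were used for levels between genes. Positions are from the GENCODE annotation of GRCm38 and promoter sequences from RefSeq, both matched by symbol.

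All 7 genes are named, with Plin5, Arntl and Dbp, and the genes of the fixed pathway lists called in a comparison; some genes that the rules select are counted but not reported here by name. The members and lists were chosen with earlier results of these data known. Alternatives were RLE size factors, no or a stricter filter (1 CPM in 4 libraries), DESeq2 1.42.0, limma 3.58.1 on log2 FPKM plus 1 or 0.1, a replicate block, a fit of the compared groups alone, removal of each library's trend with transcript length (known for 96.3% of genes), fasted control ASO 3 and 4 as 1 sample, no clock-shifted libraries, and leaving out each library. Libraries with the same number were of different conditions, and their deviations correlated between -0.21 and 0.38. Pairs of unlike number were not set beside these, so a batch shared by number was not tested. The main fit did not pair libraries by number.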

Additional observations from a re-analysis of the deposited data

Results flagged for a closer look

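Among the 7 genes in the 4 groups, 28 sets of 4 or 5 values, 1 value lay far from the rest of its group by Dixon's test. This was Gys2 in the library fasted control ASO 1, at 281 CPM, where the other 3 libraries of the group were at 393 to 402 CPM. The gap to the nearest library was 0.927 of the range of the group. Chance gives about 1 such value in 20 groups. The same library had the lowest Ppp1r3b value of all 19 (85.2 CPM) and the highest Ppp1r3c value of its group (117 CPM).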

How the results depend on the processing

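Pygl was called under both ASOs in every alternative; with 1 library left out it ranged from 1.002 to 1.11 under the control ASO and from 0.97 to 1.10 under the PLIN5 ASO. Of 812 alternative values for the 7 genes, 744 kept their direction and side of the threshold, 15 lost a call, 3 gained one and 50 changed sign; no called value changed sign. The number of the 7 called on re-feeding under the PLIN5 ASO was 3, 1 when only the groups compared were fitted, and 1 to 3 when 1 library was left out. Without the clock-shifted libraries these values changed sign: in fasted liver under the PLIN5 ASO Gys2 0.27, Ppp1r3c -0.13 and Gbe1 0.035; in re-fed liver under it Ppp1r3b 0.18 and Ppp1r3c 0.79; on re-feeding Ppp1r3c -0.37 (control ASO) and Gys2 -0.36 (PLIN5 ASO); for the interaction Pygl 0.072, Gys2 -0.27, Ppp1r3c 0.92 and Gbe1 -0.26. With the replicate number as a block, Ppp1r3b and Gbe1 were 0.0045 and 0.0070 in the re-fed ASO comparison, and Ppp1r3g and Ugp2 were -0.59 and -0.042 on re-feeding under the control ASO; the block changed no call among the 7. With the length trend taken out Ppp1r3b was 0.0070 in the re-fed ASO comparison. On log2 FPKM plus 0.1 Ppp1r3c was 0.0039 there, and Ppp1r3g was -0.63 on re-feeding under the control ASO (-0.26 with plus 1, with or without a filter). Ugp2 was -0.00393 with RLE, -0.0057 without a filter and -0.00456 with DESeq2 there. The cause of these was not tested. With 1 library left out, Gys2 ranged from -0.30 to 0.058 in the fasted ASO comparison. In the re-fed one Ppp1r3b ranged from -0.19 to 0.12, Ppp1r3c from -0.46 to 0.13 and Gbe1 from -0.13 to 0.085. On re-feeding under the control ASO Ppp1r3g ranged from -0.78 to 0.37 and Ugp2 from -0.10 to 0.082. Gys2 ranged from -0.15 to 0.21 under the PLIN5 ASO, and Pygl from -0.10 to 0.048 for the interaction. Counts over all genes ranged from 22 to 431 in the fasted ASO comparison, 4 to 612 in the re-fed one, 1112 to 2250 and 741 to 1506 on re-feeding under the control and PLIN5 ASO, and 0 to 93 for the interaction. Fitting only the groups compared gave no further fit for the interaction, which uses all 4. Ppp1r3g had 10 to 883 counts per library; the other 6 genes had at least 1176.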
